A study of Mus musculus with 8 samples.

Results

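Ion channel genes were examined in cultured smooth muscle cells of the mouse aorta, which contract to set the width of the vessel. The 42 genes were listed by name and cover voltage-gated sodium and calcium channels, potassium channels, TRP and Piezo channels, chloride and volume-regulated anion channels, and the channels of store-operated and stored calcium. A row was found by Entrez identifier for 40 of them, among 24704 genes in all, and Cacnb3 and Itpr1 were not analysed here. Every culture was infected with an adenovirus for 24 h and then kept in cholesterol at 10 µg/ml for 72 h. The virus was AdPl on 4 arrays, labelled as control, and AdN5 on 4 arrays, labelled as NFAT5 overexpression. The NFAT5 protein switches on genes of the tonicity response, and the comparison asks which transcripts differ between cultures given AdN5 and cultures given AdPl. No array of cells without virus or without cholesterol was analysed here, and the labels do not say whether the arrays of a group came from separate cultures, so that p-values measure only the spread between these arrays, which may be technical.

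In arterial smooth muscle, calcium entry through voltage-gated calcium channels drives contraction, and potassium channels oppose it by keeping the membrane hyperpolarised. TRP and Piezo channels admit cations in response to stretch, receptors or lipids, chloride channels depolarise the membrane, and STIM and Orai proteins refill calcium stores that ryanodine and inositol trisphosphate receptors release. Volume-regulated anion channels let cells shrink after swelling, and voltage-gated sodium channels are best known from nerve and striated muscle.

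Of the 40 channel genes 1 fell and 0 rose in the NFAT5-labelled arrays. The gene that fell was Scn7a, to 0.368 of the control level, and the other 39 did not pass the test. A gene was called when its adjusted p in limma, over all genes tested, was under 0.05. At that threshold 0.413% of all genes were called lower, 0.364% higher and 0.777% in either direction. The median log2 fold change (NFAT5-labelled minus control) was -0.015 over the 40 channel genes and 0.0042 over all genes. At an unadjusted p under 0.05 there were 5 channel genes, Scn7a, Trpm4, Lrrc8a, Piezo1 and Kcnj15, or 12.5%, and the share was 12.5% over all genes as well.

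The values were log2 levels made by the submitters with RMA, which brings all arrays to the same distribution, so a shift shared by most genes cannot be seen. A gene is called dim below when its mean over the 8 arrays lay under that of the median gene (3.73). Differences of dim genes are compressed toward 0 by this method, and a signal below the median gene does not show that a transcript was present. Levels are compared only within a gene, since probe sets differ in how strongly they bind. By this rule 20 of the 40 channel genes were dim, among them 6 of the 7 sodium channel genes. Kcnj15, Kcnma1, Kcnd3 and Trpv4 lay above the median gene by 0.061 or less, and Kcnj8 lay below it by 0.075.

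**Figure D1:**
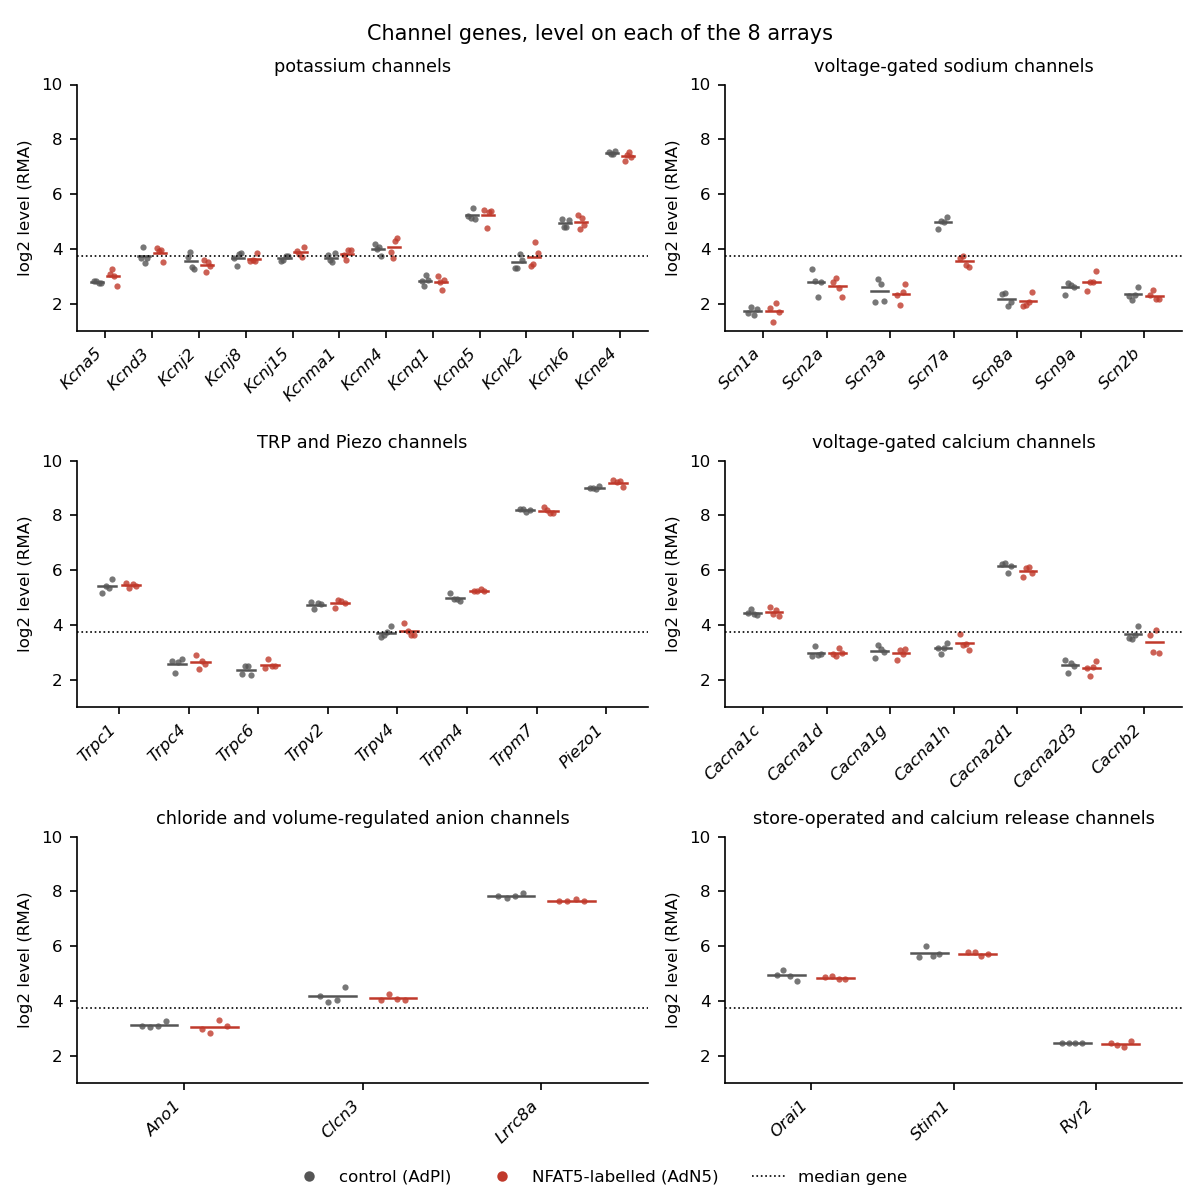
Log2 level (RMA, y axis) of the 40 channel genes on each array, by channel class, with control arrays in grey, NFAT5-labelled arrays in red, horizontal bars at the group means and a dotted line at the median gene (3.73). Scn7a stands at 4.72 to 5.17 in the control arrays and at 3.33 to 3.75 in the NFAT5-labelled arrays, and the remaining sodium channel genes lie below the median gene.

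Nfat5 itself stood at 7.06, 7.22, 7.11 and 7.25 in control replicates 1 to 4 and at 7.06, 6.95, 6.98 and 6.88 in NFAT5 replicates 1 to 4. The log2 fold change was -0.19 ± 0.078 (SE; adjusted p = 0.360 in limma, exact two-sided permutation p = 0.0571, smallest possible 0.0286). This difference was not called, and NFAT5 replicate 1 stood level with control replicate 1. The probe set thus shows no rise to bear out the label. Whether it reads an Nfat5 transcript supplied by the virus is not known. The arrays are therefore called NFAT5-labelled throughout, with each direction drawn from the labels. Pairs of arrays correlated at 0.989 to 0.993 across genes. On the first principal component (22% of the variance) control arrays ran from -17.1 to -6.8 and NFAT5-labelled arrays from 7.49 to 19.9. On the second principal component (17.1% of the variance) 4 arrays lay apart. Control replicate 3 (14.2) and NFAT5 replicate 4 (24.7) were at its positive end and NFAT5 replicates 2 (-11.1) and 3 (-19.5) at its negative end. Of 9 smooth muscle markers 3 (Mylk, Des and Itga8) were dim, the others, such as Acta2 and Myh11, were not, and 0 were called. Fold changes were above 0 for 5 and below 0 for 4, with Cnn1 (0.33) and Acta2 (-0.30) at the ends. Their mean log2 level ran from 6.08 to 6.14 over the control arrays and from 6.04 to 6.22 over the NFAT5-labelled arrays.

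Among the voltage-gated sodium channel genes Scn7a was the only gene called. Scn7a encodes an atypical sodium channel that opens with the sodium concentration outside the cell and is known from sodium sensing in the brain and from peripheral nerve. Its log2 level was 4.72, 5.03, 4.99 and 5.17 in control replicates 1 to 4, and 3.65, 3.75, 3.41 and 3.33 in NFAT5 replicates 1 to 4. All 4 NFAT5-labelled arrays were lower than all 4 control arrays, with a gap of 0.97 between the nearest arrays of the groups. The means were 4.98 ± 0.19 and 3.54 ± 0.20 (SD, n = 4), a log2 fold change of -1.44 ± 0.12 (SE; adjusted p = 0.00128 in limma) whose 95% interval runs from -1.72 to -1.16. This is 2.71-fold lower, with an interval of the ratio from 0.304 to 0.447. The mean of the NFAT5-labelled arrays lay below the median gene, where RMA compresses differences, so the size of the fall is uncertain. Scn7a stayed called in all 16 other settings tried, with log2 fold changes from -1.52 to -1.37 and an adjusted p of at most 0.0414. The fall of Scn7a was already known from an earlier look at these data.

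The remaining 6 sodium channel genes were dim and did not pass. Scn9a, a channel of pain-sensing neurons, was at 2.59 ± 0.19 in the control and 2.80 ± 0.29 in the NFAT5-labelled arrays (SD, n = 4), the highest change of the class (0.22; adjusted p = 0.627). Scn2a (-0.16), Scn8a (-0.10), Scn3a (-0.093) and Scn1a (-0.0050) encode channels of central neurons, and Scn2b (-0.054) encodes an auxiliary beta subunit. Each of them had arrays of both groups intermixed. Their means over all arrays ran from 1.72 for Scn1a to 2.71 for Scn2a, so low that little can be read from their differences.

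Scn7a lies on chromosome 2 in a cluster with Scn3a, Scn2a, Scn1a and Scn9a, in this order in the RefSeq gene table, which was used here for the order of genes only. Scn7a was the only called gene among the 11 protein-coding genes from Slc38a11 to Xirp2. Csrnp3, Galnt3 and Ttc21b, which lie between the sodium channel genes, were at -0.19, -0.13 and -0.011. Beyond Scn7a, Gm1322 was at -0.036 and Xirp2, a gene of striated muscle, at 0.20 (adjusted p = 0.490). Ttc21b, a gene of cilia at 5.34 ± 0.089 in the control and 5.33 ± 0.25 in the NFAT5-labelled arrays, was besides Scn7a the only one of these genes that was not dim. For the dim neighbours the values say little about whether they moved with Scn7a.

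**Figure D2:**
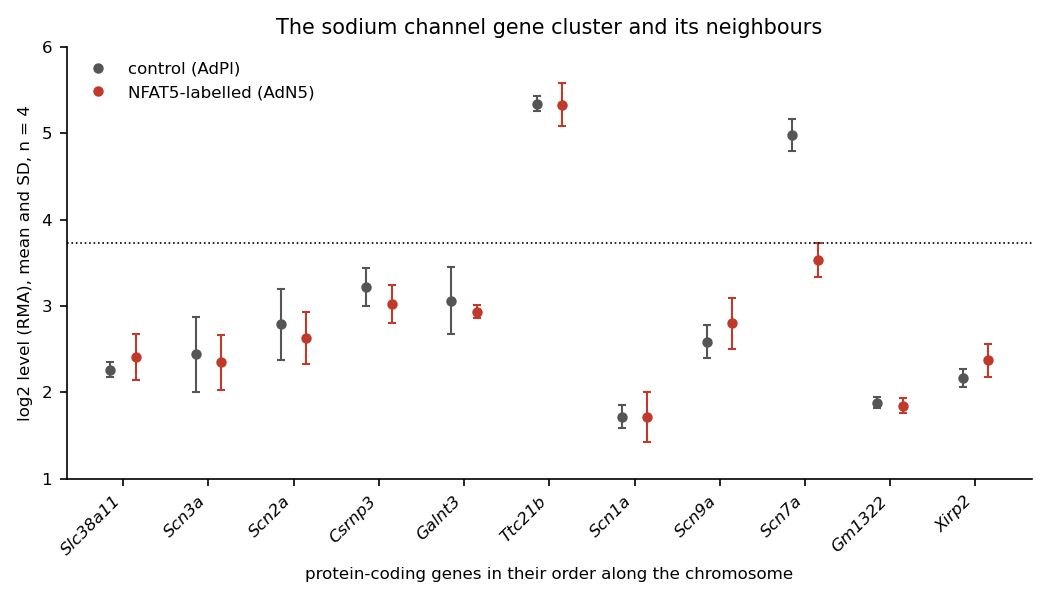
Mean log2 level (RMA, y axis) with SD over 4 arrays of the protein-coding genes around Scn7a, in their order along chromosome 2 (x axis, not to scale), for control arrays (grey) and NFAT5-labelled arrays (red), with the median gene as a dotted line. Scn7a drops from 4.98 to 3.54, while the group ranges of the neighbours overlap.

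The stretch before the start of Scn7a is shown beside that of its neighbour Scn9a, which did not pass. Scn9a was dim, so it cannot be taken as a gene that stayed unchanged. These are the 250 bases before the annotated start in RefSeq (build GRCm38.p6), chr2:66784911-66785160 for Scn7a and chr2:66634963-66635212 for Scn9a, both on the minus strand and printed 5′ to 3′. Capitals mark GGAAA, the core that NFAT proteins bind, searched on both strands with TTTCC as its reverse complement.
Scn7a: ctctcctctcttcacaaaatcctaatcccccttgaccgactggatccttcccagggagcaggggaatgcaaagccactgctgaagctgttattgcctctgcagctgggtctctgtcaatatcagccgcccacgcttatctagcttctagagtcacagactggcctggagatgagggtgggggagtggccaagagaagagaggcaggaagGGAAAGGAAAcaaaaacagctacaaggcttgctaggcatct
Scn9a: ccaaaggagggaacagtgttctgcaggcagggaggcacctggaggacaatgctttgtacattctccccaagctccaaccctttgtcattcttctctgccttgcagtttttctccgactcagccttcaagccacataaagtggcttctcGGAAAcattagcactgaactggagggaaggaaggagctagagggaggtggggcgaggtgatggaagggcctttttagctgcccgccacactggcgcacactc
In Scn7a the core occurred at 2 adjoining places, whose first bases lie 41 and 36 bases before the start, and in Scn9a at 1 place, 102 bases before it. The longer TGGAAA, with TTTCCA as its reverse complement, which holds GGAAA and begins the tonicity element that NFAT5 binds, occurred in neither window. Of all 32851 promoter windows of this length 55.6% held GGAAA and 18.6% held TGGAAA. A RefSeq window was found for 34 of the 40 channel genes, and 23 of their 47 windows (48.9%) held GGAAA and 5 (10.6%) held TGGAAA. A match is only a match of letters, and binding of NFAT5 was not measured.

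Markers of other cell types that an aortic culture could hold are given beside these values. Over all genes 0.364% were called higher and 0.413% lower, and 12608 of 24704 fold changes were above 0. Of 9 fibroblast or adventitial markers 2 were dim, 2 had fold changes above 0 and 7 below 0. The 1 called lower was Ly6c1, a dim gene. Their mean log2 level ran from 6.11 to 6.15 over the control arrays and from 5.67 to 5.90 over the NFAT5-labelled arrays. All 10 macrophage markers had fold changes above 0, 3 (Adgre1, Cd68 and Laptm5) were called higher and 1 was dim. Their means ran from 5.78 to 5.99 over the control arrays and from 6.15 to 6.37 over the NFAT5-labelled arrays. Of 11 Schwann cell or neuronal markers 8 were dim, 7 had fold changes above 0, 4 below 0 and 0 were called. Their means ran from 3.06 to 3.30 and from 3.15 to 3.29. Of 8 endothelial markers 3 were dim, 3 had fold changes above 0, 5 below 0 and 0 were called. Their means ran from 4.46 to 4.64 and from 4.44 to 4.62. Of 8 cardiac or skeletal muscle markers 6 were dim, 3 had fold changes above 0, 5 below 0 and 0 were called, with means from 3.28 to 3.40 and from 3.12 to 3.35. The part of these cell types in the fall of Scn7a, or in the values of the other channel genes, was not tested. In such bulk samples fewer cells of a type and less RNA per cell cannot be told apart. Whether the smooth muscle cells or other cells held the marker transcripts cannot be told either.

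None of the 7 measured voltage-gated calcium channel genes passed the test. Cacna1c, the pore of the L-type channel that carries the contractile calcium current of smooth muscle, was at 4.44 ± 0.10 in the control and 4.48 ± 0.15 in the NFAT5-labelled arrays (SD, n = 4), a log2 fold change of 0.045 with a 95% interval from -0.17 to 0.26. The other pore genes were dim. Cacna1h, a T-type pore, was the highest of the class (0.19 ± 0.13 SE; 3.14 ± 0.16 in the control and 3.33 ± 0.23 in the NFAT5-labelled arrays), and Cacna1g, also T-type, and Cacna1d, L-type, were at -0.071 and -0.0027. Of the auxiliary subunits Cacna2d1, which helps carry the pore to the membrane, was at -0.17 (6.14 ± 0.16 against 5.96 ± 0.17) and Cacna2d3 was dim at -0.10. Cacnb2, a beta subunit that traffics and gates the pore, was the lowest of the class at -0.29 ± 0.20 (SE; adjusted p = 0.620). Its level was 3.53, 3.48, 3.64 and 3.98 in the control arrays and 3.63, 3.01, 3.83 and 2.97 in the NFAT5-labelled arrays. NFAT5 replicates 2 and 4 were low and replicates 1 and 3 lay among the controls, so that the difference did not exceed the spread.

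The 12 potassium channel genes all missed the threshold, 7 with a fold change above 0 and 5 below, and their median log2 fold change was 0.057. Among the inward rectifiers Kcnj15 was the highest of the class at 0.22 ± 0.097 (SE; adjusted p = 0.380). Its level was 3.54, 3.59, 3.73 and 3.73 in the control arrays and 3.90, 3.81, 3.71 and 4.08 in the NFAT5-labelled arrays, with NFAT5 replicate 3 inside the range of the controls. Kcnj2, the classical inward rectifier of vascular muscle, was the lowest at -0.13 (3.54 ± 0.29 against 3.41 ± 0.19), and Kcnj8, the pore of the vascular ATP-sensitive channel, was at -0.031. Both were dim. Abcc9, the sulfonylurea receptor partner of Kcnj8, was at 0.10. The calcium-activated channels were Kcnma1 (0.14; 3.68 ± 0.14 against 3.82 ± 0.17), the large-conductance channel that limits contraction, and Kcnn4 (0.066; 3.99 ± 0.19 against 4.06 ± 0.34), the intermediate-conductance channel known from proliferating smooth muscle. Kcnmb1, the smooth muscle beta subunit of the large-conductance channel, was at 0.34 ± 0.15 (SE; adjusted p = 0.396). Its mean over all arrays (3.736) lay barely above the median gene, and its groups overlapped.

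Voltage-gated potassium channel genes ranged from Kcna5 at 0.21 and Kcnd3 at 0.13 to Kcnq5 at -0.013 and Kcnq1 at -0.051. Kcna5 and Kcnq1 were dim. Kcnq5 was at 5.24 ± 0.18 in the control and 5.22 ± 0.32 in the NFAT5-labelled arrays (SD, n = 4). Its arrays ran from 5.11 to 5.49 and from 4.75 to 5.42, with NFAT5 replicate 2 at the low end. Kcne4, an accessory subunit that inhibits or tunes such channels in arteries, was at 7.51 ± 0.059 and 7.39 ± 0.13 (-0.12; 95% interval from -0.31 to 0.075). Of the background channels that set the resting potential, the stretch-sensitive Kcnk2 was dim at 0.21 and Kcnk6 was at 0.048 (4.94 ± 0.16 against 4.98 ± 0.24).

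In the TRP and Piezo class 0 of 8 genes were called, and 7 of 8 fold changes were above 0, with a median of 0.065. Over all genes 12608 of 24704 were above 0. Among 22 further genes of this class, from the wider list described below, 9 were above 0 and 13 below, with a median of -0.030. Trpm4, a calcium-activated cation channel of the myogenic response, had the highest value of the 40 channel genes at 0.27 ± 0.083 (SE; 95% interval from 0.084 to 0.46; adjusted p = 0.218). Its level was 5.17, 4.94, 4.93 and 4.88 in control replicates 1 to 4 and 5.22, 5.24, 5.31 and 5.22 in NFAT5 replicates 1 to 4. The groups did not overlap, but only 0.054 separated control replicate 1 from the nearest NFAT5-labelled array. Piezo1, the mechanically gated channel, was at 0.19 ± 0.080 (SE; adjusted p = 0.378). It stood between 8.97 and 9.06 in the control arrays and at 9.30, 9.21, 9.24 and 9.03 in the NFAT5-labelled arrays. Here NFAT5 replicate 4 lay inside the control range, and the other 3 were above it.

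The remaining TRP genes lay nearer to 0 or were dim. Trpm7, a channel fused to a kinase that passes magnesium and other divalent ions, had the lowest value of the class at -0.026 (8.19 ± 0.057 against 8.17 ± 0.089). Among the canonical channels Trpc1 was at 0.042, and Trpc4 (0.054) and Trpc6 (0.19), which open downstream of receptors, were dim. Among the vanilloid channels Trpv2 was at 0.065 (4.74 ± 0.12 against 4.81 ± 0.13) and Trpv4, which opens on cell swelling and warmth, was at 0.065 (3.71 ± 0.18 against 3.78 ± 0.22).

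The 3 chloride and volume-regulated anion channel genes all had fold changes below 0, and none of them passed. Among 24 further genes of this class, from the wider list, 14 were above 0 and 10 below, with a median of 0.025. Lrrc8a, the obligatory subunit of the volume-regulated anion channel, was at 7.83, 7.76, 7.85 and 7.94 in control replicates 1 to 4 and at 7.65, 7.65, 7.71 and 7.66 in NFAT5 replicates 1 to 4. Its groups did not overlap, with 0.054 between the nearest arrays, and the log2 fold change was -0.17 ± 0.070 (SE; 95% interval from -0.33 to -0.017; adjusted p = 0.346). The partner subunit genes Lrrc8b (0.18), Lrrc8c (0.077), Lrrc8d (0.033) and Lrrc8e (0.018) had fold changes above 0 and did not pass. Clcn3, a chloride-proton exchanger of endosomes, was at -0.070 (4.17 ± 0.25 against 4.10 ± 0.099). Ano1, the calcium-activated chloride channel of vascular muscle, was dim at -0.082.

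The genes of store-operated entry and calcium release had fold changes within 0.085 of 0, and 0 of 3 were called. Stim1, the calcium sensor of the store, was at -0.016 (5.74 ± 0.18 against 5.73 ± 0.074; 95% interval from -0.24 to 0.21), and Orai1, the pore it opens, at -0.085 (4.94 ± 0.15 against 4.85 ± 0.048; 95% interval from -0.29 to 0.12). Ryr2, a ryanodine receptor, was dim at -0.036. The related genes Stim2 (-0.054), Orai2 (0.0089), Orai3 (-0.17) and Saraf (-0.057), which damps store-operated entry, did not pass either. The inositol trisphosphate receptor genes Itpr3 (0.41) and Itpr2 (-0.29), described below, lay farther from 0 and were not called.

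The groups did not overlap for Scn7a, Trpm4 and Lrrc8a, which is 7.5% of the 40 channel genes, against 8.78% of all genes. The 95% interval of the fold change lay within 2-fold in either direction for 39 of the 40 channel genes, with Scn7a outside, and within 1.5-fold for 35. The genes whose interval reached past 1.5-fold were Scn7a, Scn2a, Scn3a, Cacnb2 and Kcnk2, of which the last 4 were dim. These intervals cover the spread between arrays and not the compression of dim genes by RMA.

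**Figure D3:**
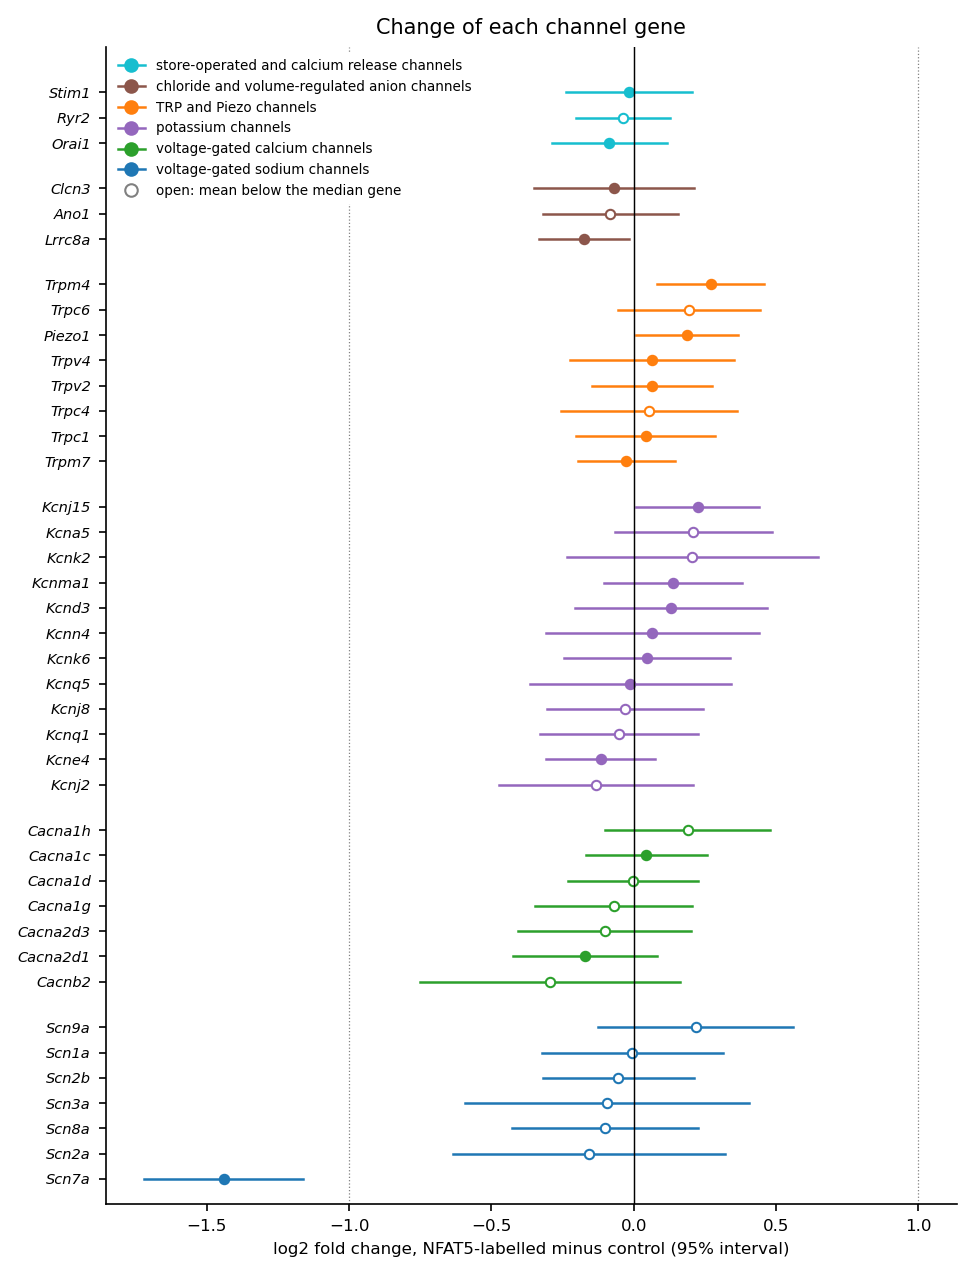
Log2 fold change of each channel gene (x axis, NFAT5-labelled minus control, points) with its 95% interval from limma (lines), coloured by channel class, with open points for dim genes and dotted lines at a 2-fold change. Scn7a at -1.44 stands apart, and the other 39 points lie between -0.29 and 0.27.

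The wider channel families were taken from a list of 174 further channel and channel subunit genes, written down by family, of which 162 were measured and 108 were dim. Of these, 1 was called higher, 0 lower and 161 in neither direction by limma, or 0.617% called against 0.777% of all genes. An unadjusted p under 0.05 in limma was found for 14 (8.64%, against 12.5% of all genes). Groups without overlap made up 5.56%, against 8.78% of all genes. None of these shares exceeded that of all genes, but the wider list held more dim genes. Of all dim genes 0.146% were called and 3.14% had groups without overlap. Of all genes that were not dim the shares were 1.41% and 14.4%. The comparison with all genes therefore does not separate channel genes from dim genes. The gene that rose was Cacng7, a gamma subunit gene known from calcium channels and glutamate receptors. Its level was 8.81, 8.71, 8.56 and 8.64 in the control arrays and 9.07, 9.10, 9.14 and 9.13 in the NFAT5-labelled arrays, all 4 above the controls. The log2 fold change was 0.43 ± 0.077 (SE; adjusted p = 0.0427 in limma), and the call was lost in each of the 8 fits that left out 1 array (adjusted p from 0.0735 to 0.133).

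Among the genes of the wider list that were not dim, the values at the ends of each class did not pass, apart from Cacng7. They were Clcn2, an inwardly rectifying chloride channel, at 0.43 ± 0.082 (SE; adjusted p = 0.0541) and Clcn4 at -0.24, Kcnab1, a beta subunit of voltage-gated potassium channels, at -0.63 ± 0.14 (SE; adjusted p = 0.0848), and the inositol trisphosphate receptors Itpr3 at 0.41 and Itpr2 at -0.29. Clcn2 stood at 5.17 ± 0.12 in the control and 5.59 ± 0.061 in the NFAT5-labelled arrays, and Kcnab1 at 4.49 ± 0.25 and 3.86 ± 0.17 (SD, n = 4). The groups did not overlap in these 5 genes, but they were picked for their fold changes in the same arrays, so this adds no support. Of all genes that were not dim, 14.4% had groups without overlap. Clcn2 was called with 3 and Kcnab1 with 2 of the 16 other settings. The ends of the other classes were Scn3b at 0.12 and Fgf11 at -0.16, Cacnb1 at -0.17, Kcnmb1 at 0.34, and Tmem63b at 0.14 and Piezo2 at -0.33.

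**Figure D4:**
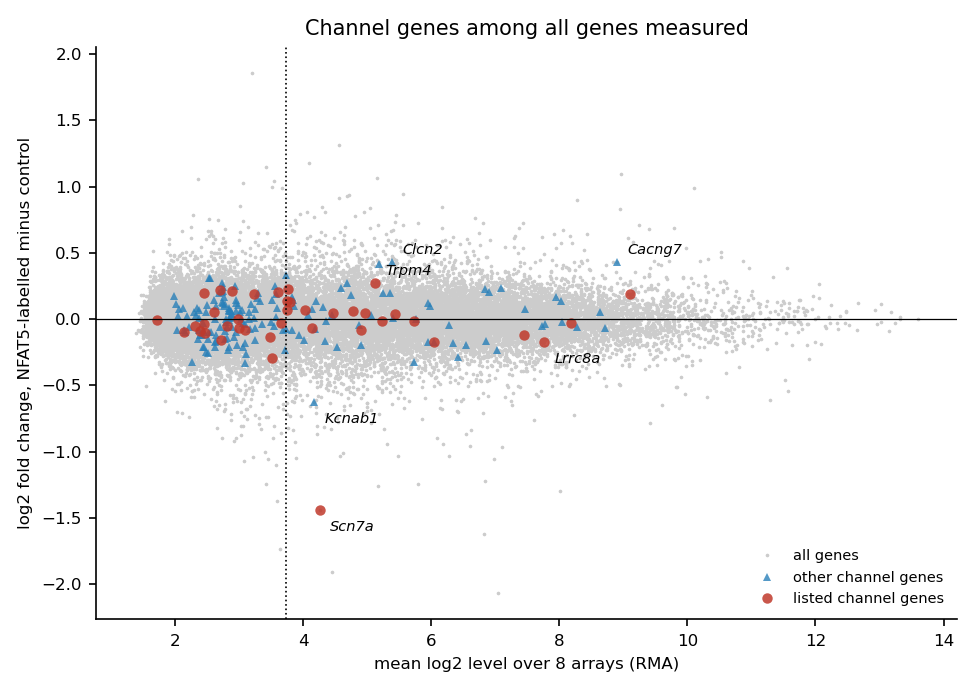
Log2 fold change (y axis, NFAT5-labelled minus control) against the mean log2 level over 8 arrays (x axis, RMA) for all 24704 genes (grey), the 40 listed channel genes (red circles) and 162 other channel genes (blue triangles), with the median gene as a dotted vertical line. Scn7a at -1.44 lies far below the other channel genes, and Cacng7 at 0.43 is the called gene of the wider list.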

How the data were processed

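Total RNA of mouse smooth muscle cells, in 8 samples, was labelled with biotin and hybridised to single-colour Affymetrix arrays. The deposited values are log2 levels, summarised by RMA (version not stated) per the submitters' processing notes; the array annotation's build is not given in the sources used here. Arrays were placed in groups by their titles. The table held 25428 probe sets keyed by Entrez identifier. The supplied probe table named 24705, and 723 stay unnamed. For the 1 symbol with several probe sets the brightest was used, which left 24704 genes, and each channel gene had 1 probe set. The sorted values were the same on 7 arrays and differed by at most 0.00183 on the other. All genes on all 8 arrays were fitted by lmFit and eBayes of limma 3.58.1 (R 4.3.3), two-sided, without covariates or a filter, with Benjamini-Hochberg adjustment over all genes. Scripts were tested on simulated data, and figures were drawn in Python 3.11.15 (matplotlib 3.10.9). The number of arrays limits the precision.

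Channel genes and lists were chosen with earlier results of these data known. Values were given for every channel gene; array by array for those called, those without overlap between groups and some shown for their spread (Cacnb2, Kcnj15 and Piezo1, chosen after their values were seen). Of the wider list, called genes and the ends of each class above the median gene were named; partner subunits (Abcc9 and the Lrrc8, Stim, Orai and Saraf genes) were added for their role. Other settings were a block for the replicate number, centring on the median or a second quantile normalisation, a filter at the lower quartile or the median gene, array weights, eBayes with trend and robust options, and fits without each array. Leaving out control replicate 3 and NFAT5 replicate 4 together was added after the data had been seen.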

Additional observations from a re-analysis of the deposited data

Results flagged for a closer look

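In 4 of 106 sets of 4 arrays (53 genes in both groups), 1 array lay far from the other 3, its gap to the nearest being a larger share of the range than Dixon's test allows at 95%; chance gives about 1 in 20. Clcn3 was at 4.25 in NFAT5 replicate 2, against 4.04 to 4.06 in the other NFAT5-labelled arrays. Kcnq5 was at 4.75 in the same array, against 5.36 to 5.42. Kcnj8, a dim gene, was at 3.85 in NFAT5 replicate 4, against 3.56 to 3.60. Trpm4 was at 5.31 in NFAT5 replicate 3, against 5.22 to 5.24.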

How the results depend on the processing

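Scn7a was called lower and 0 channel genes were called higher in all 16 alternatives. For the other 39 genes the smallest adjusted p among them was 0.0765, for Trpm4 among genes above the median gene. The count over all genes moved from 192 to 497 among genes above the median gene, 781 with a variance trend and robust estimation, 56 to 88 with 1 array left out, and 30 without control replicate 3 and NFAT5 replicate 4, an alternative chosen after seeing the data. In the wider channel list the count of risen genes moved from 1 to 2 with the filter at the lower quartile, the filter at the median gene or the variance trend (Cacng7 and Clcn2), and to 0 with 1 array left out or without control replicate 3 and NFAT5 replicate 4 (Cacng7, adjusted p = 0.192). The count of fallen genes moved from 0 to 1 with the filter at the median gene or the variance trend (Kcnab1). The log2 fold change of Nfat5 stayed between -0.22 and -0.16 with 1 array left out. Renewed quantile normalisation and median centring left the calls of both lists as they were.

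No pairing by replicate number was seen, though so few arrays cannot exclude it. The deviations of same-numbered arrays correlated at 0.055, 0.051, -0.080 and -0.047 across genes, and 3 of 8 arrays correlated best with their own number. With the number as a block, 14 genes were called in all, with Scn7a still among them, and 0 of the wider channel list rose (Cacng7, adjusted p = 0.196). Dim genes limit what can be seen: 20 of the 40 channel genes lay below the median gene.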
